A study of Homo sapiens with 15 samples.

Results

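The 10 genes described here encode receptor tyrosine kinases of the AXL, MET, PDGF receptor and FGF receptor families and some of their ligands. The receptors are AXL, MET, MST1R, PDGFRB, FGFR1, FGFR2 and FGFR3, and the ligands are GAS6, PDGFC and FGF2. They were taken by gene symbol, and all 10 were found among the 33158 symbols of the expression table. The study sequenced mRNA of triple negative breast cancer cells to compare cancer stem cells (CSCs) with the other cells of the same line. From each of the SUM149PT and HCC1937 lines, a CSC fraction (CD44+/CD24-/low by flow cytometry) and a non-CSC fraction (all other cells) were sorted. SUM159PT was left unsorted and is labelled as cancer stem cells. Each of the 5 groups had 3 libraries, 15 in all.

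These are established lines, none carried a treatment or an engineered allele according to the labels, and each is a single line. Nothing in the labels says that the 3 libraries of a group came from separate cultures, so p-values measure only the spread between these libraries, which may be technical. Values are FPKM (fragments per kilobase of transcript, scaled by the mapped fragments of the library), which allows levels of different genes to be set side by side. The depth of each library is unknown, and no counting interval is given. Summed FPKM ran from 291276 to 366532 in the 12 sorted libraries and from 634746 to 652082 in SUM159PT, so SUM159PT is described by its deposited values and entered a fit only in the alternative over all 15 libraries.

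Receptor tyrosine kinases are single-pass membrane proteins that pair when a ligand binds, phosphorylate each other and recruit adaptors that feed the RAS-ERK and PI3K pathways. AXL, PDGFRB and FGFR1 are well known from mesenchymal cells, and MST1R and the epithelial splice form of FGFR2 from epithelia. In breast cancer, several of these receptors have been studied in connection with epithelial-mesenchymal transition and drug resistance.

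The sorting markers, looked at outside the naming rule, differed in how far their RNA followed the gates. CD24 was lower in the CSCs of both lines. It stood at 7.74 ± 0.198 FPKM in SUM149PT CSCs and 139 ± 6.53 in SUM149PT non-CSCs (SD, n = 3). In HCC1937 it was 23.3 ± 0.747 in CSCs and 150 ± 14.3 in non-CSCs, and in SUM159PT 0.729 ± 0.0410. CD44 differed less and overlapped between the HCC1937 fractions, at 84.4 ± 2.08 against 64.5 ± 2.86 FPKM in SUM149PT, 106 ± 6.33 against 97.8 ± 3.98 in HCC1937, and 28.8 ± 0.542 in SUM159PT.

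Epithelial and mesenchymal marker genes moved strongly with the sort, and their part in the results on the receptors was not tested. Of 14 epithelial markers, 14 were lower in SUM149PT CSCs and 13 in HCC1937 CSCs, with median log2 fold changes of -4.14 and -2.20. Of all genes tested, 41.5% and 15.3% were lower and 33.3% and 10.3% higher, with medians of -0.11 and -0.03, and the marker counts here are to be read against these shares. Their summed level was 183 to 194 FPKM in SUM149PT CSC libraries against 2584 to 2616 in non-CSCs, and 541 to 639 against 1702 to 1977 in HCC1937. KRT19, a simple-epithelium keratin, was the most abundant of them in both SUM149PT fractions (41.9 FPKM in CSCs and 1127 in non-CSCs), KRT8 in HCC1937 CSCs (216 FPKM) and KRT18 in HCC1937 non-CSCs (611 FPKM). Of 11 mesenchymal markers, 8 were higher and 3 lower in SUM149PT CSCs, and 8 of 10 tested were higher in HCC1937 CSCs, with medians of 1.92 and 1.80. Their sum was 2794 to 2965 FPKM in SUM149PT CSCs and 887 to 952 in non-CSCs, and 1052 to 1210 against 182 to 258 in HCC1937. VIM led this list at 2090 FPKM in SUM149PT CSCs, 917 in HCC1937 CSCs and 156 in HCC1937 non-CSCs, and SNAI1 led it in SUM149PT non-CSCs at 373 FPKM. In SUM159PT the epithelial sum was 277 to 293 FPKM, led by KRT18 at 153, and 7 of the 14 markers, among them EPCAM and CDH1, were under 0.1 FPKM, while VIM stood at 1078 and the mesenchymal sum at 1333 to 1361. Fewer cells of a type and less RNA per cell cannot be told apart in these bulk libraries.

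Lists of leukocyte, endothelial and fibroblast markers were also read, against the same shares of all genes, and their part in the results was not tested. The leukocyte genes PTPRC and CD3E were under 0.1 FPKM in all 5 groups. The leukocyte sum of 6 genes was 18.2 to 19.3 FPKM in SUM149PT CSCs, 95.6 to 103 in SUM149PT non-CSCs, 93.9 to 108 in HCC1937 CSCs, 68.2 to 73.4 in HCC1937 non-CSCs and 47.8 to 54.0 in SUM159PT. CD14 or CD68 led it in every group, and 2 of 2 tested were lower in SUM149PT CSCs (median -2.90), while 1 of 3 was higher and 0 lower in HCC1937 (median 0.08). None of 4 endothelial markers reached 1 FPKM, and their sum never exceeded 1.83 FPKM. All 3 tested were lower in SUM149PT CSCs (median -2.48), and 1 of 2 was lower in HCC1937 (median -0.52). Of 5 fibroblast markers, COL1A1 led in all groups, at 216 FPKM in SUM149PT CSCs, 49.0 in SUM149PT non-CSCs, 11.0 and 6.76 in the HCC1937 CSCs and non-CSCs and 20.1 in SUM159PT. The summed fibroblast level was 225 to 230 FPKM in SUM149PT CSCs, 66.1 to 69.2 in SUM149PT non-CSCs, 11.7 to 12.6 in HCC1937 CSCs, 6.10 to 7.80 in HCC1937 non-CSCs and 30.6 to 33.3 in SUM159PT. In SUM149PT CSCs 2 of 4 tested were higher and 2 lower (median 0.63), and in HCC1937 2 of 3 were higher and 0 lower (median 1.21).

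**Figure D1:**
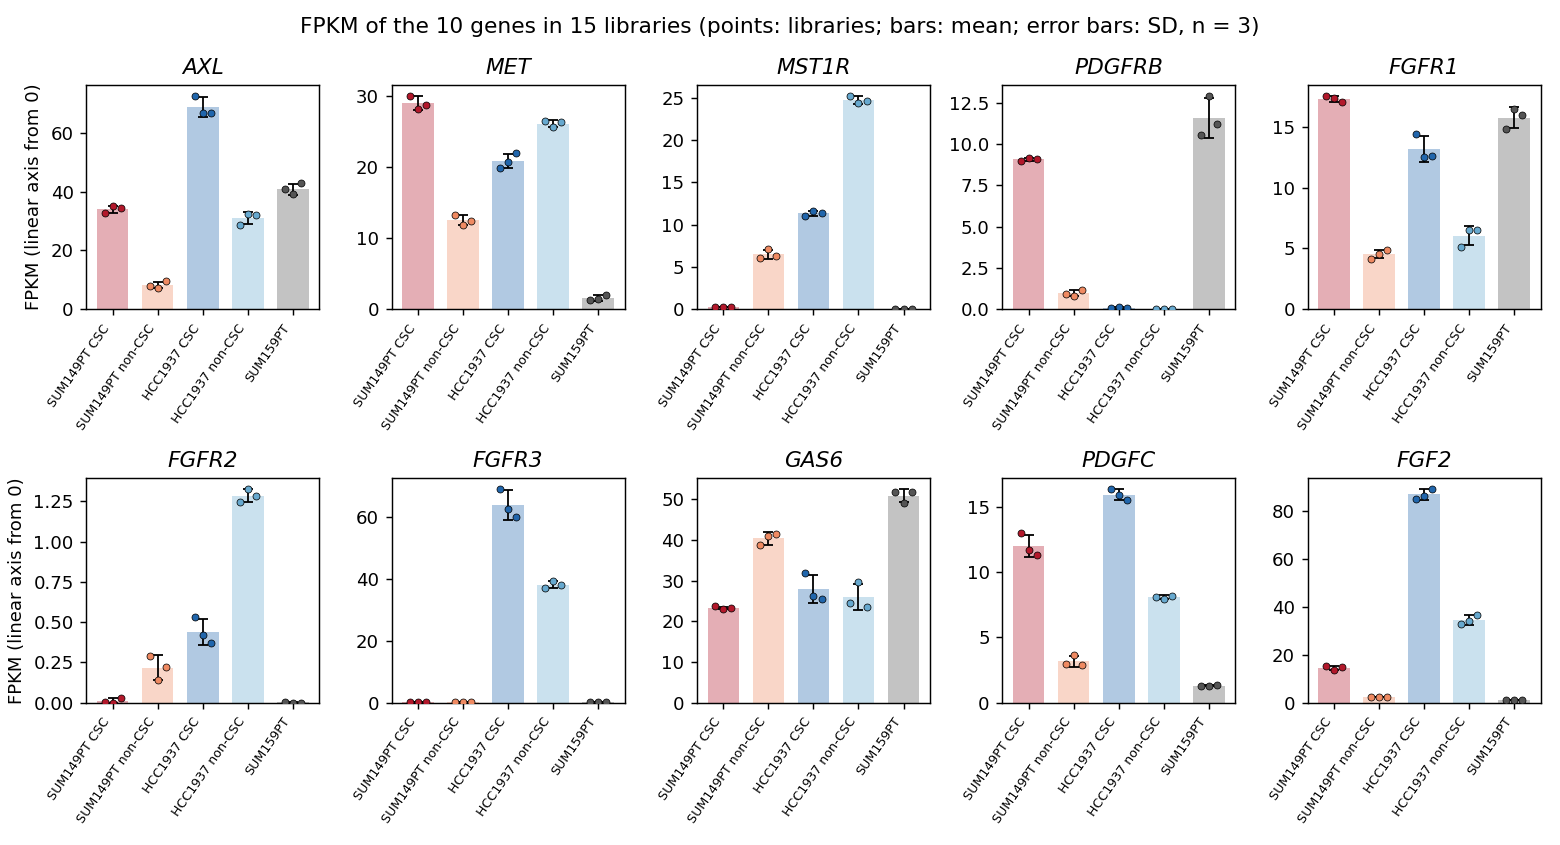
FPKM of each gene (linear axis from 0, a separate scale for each gene) in the 15 libraries of the 5 groups. Points are libraries, bars the mean and error bars the SD (n = 3); AXL and FGF2 peaked in HCC1937 CSCs (68.6 and 87.1 FPKM), and PDGFRB stood at 9.08 in SUM149PT CSCs and 11.6 in SUM159PT but under 0.1 on average in both HCC1937 groups.

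In SUM149PT, 6 of the 10 genes were higher in CSCs and 3 lower by limma at an adjusted p of at most 0.05, against 33.3% and 41.5% of 16037 genes tested. The higher genes were AXL, MET, PDGFRB, PDGFC, FGFR1 and FGF2, the lower ones GAS6, MST1R and FGFR2, and FGFR3 did not pass. FGFR2 met the minimum for a test only through its non-CSC libraries. The 10 genes were chosen with earlier results of these data known, so their shares beside those of all genes are a description only. The share that was higher lies above that of all genes, and 3 of 10 lower is near the 41.5% of all genes. Most genes passed in one direction or the other in this comparison. At the study's cutoffs (0.0001 for the false discovery rate and 1 for an enrichment score, read here as the absolute log2 fold change), 7 of the 10 passed, against 20.5% of all genes. The median log2 fold change was 1.55 for the 10 genes and -0.11 for all genes. Of all genes called, 44.6% were higher in CSCs, and 54.4% with quantile normalization.

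In HCC1937, PDGFRB had a mean under 0.1 FPKM and was not tested. Of the other 9 genes, 5 were higher in CSCs and 3 lower, against 10.3% and 15.3% of 15582 genes. AXL, PDGFC, FGFR1, FGFR3 and FGF2 were higher, MET, MST1R and FGFR2 lower, and GAS6 did not pass. At the study's cutoffs 0 of 9 passed in limma, and 0% of all genes did, while 8 of 9 and 5886 of 15582 had an unadjusted p under 0.05. Over alternatives, limma's smallest adjusted p was 1.36e-06 for AXL and 4.49e-07 for FGF2. Their log2 fold changes ran from 1.09 to 1.27 and from 1.29 to 1.46, so the 0 of 9 depends on the fit. The median was 0.74 for the 9 genes and -0.03 for all genes. Of all genes called, 40.3% were higher in CSCs, a share that rose to 52.8% with quantile normalization and 56.1% with TPM.

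The plot of fold changes shows 4 genes higher in CSCs of both lines (AXL, PDGFC, FGFR1 and FGF2), MST1R and FGFR2 lower in both, and MET in opposite directions. Over all genes tested in both lines (14423), 2315 were called in the same direction and 842 in opposite ones. Quantile normalization moved the median log2 difference of all genes by 0.20 in SUM149PT, and TPM moved it by 0.12 in HCC1937.

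**Figure D2:**
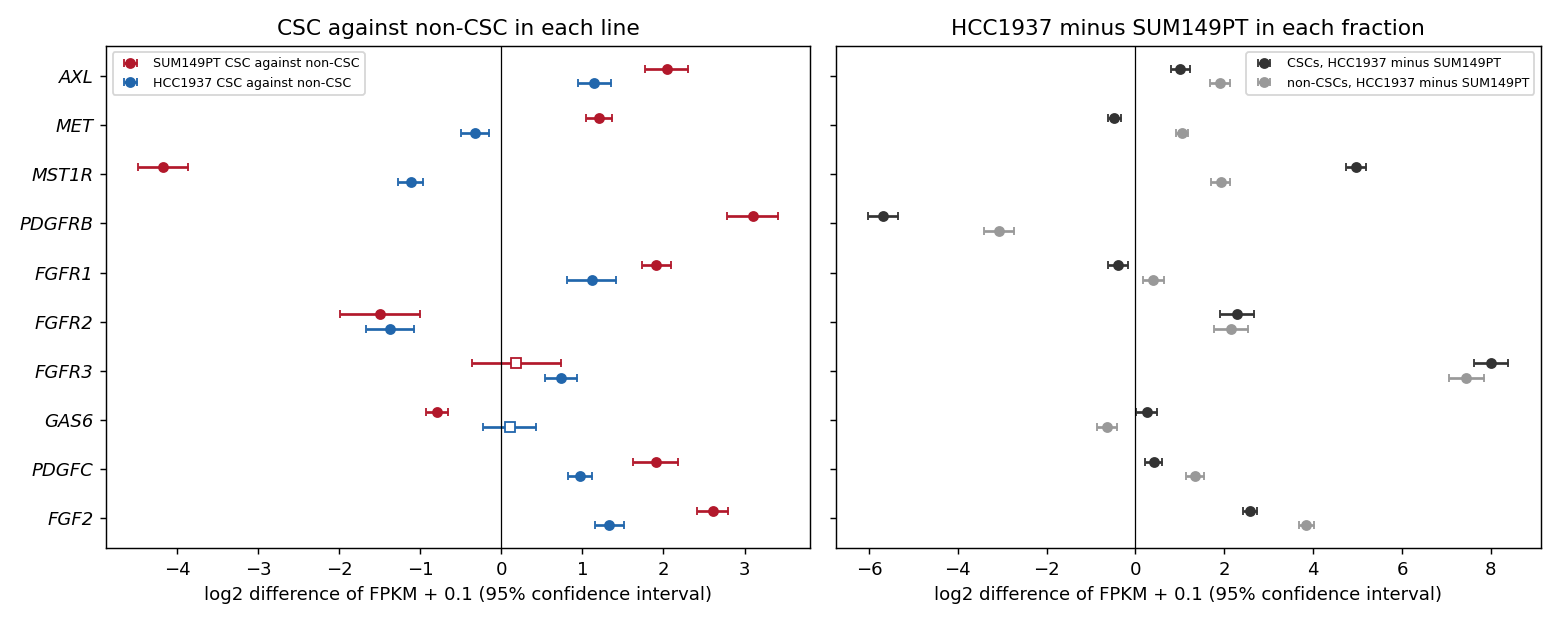
Log2 difference of FPKM + 0.1 with 95% confidence intervals for CSCs against non-CSCs in SUM149PT (red) and HCC1937 (blue), and for HCC1937 minus SUM149PT in CSCs (black) and non-CSCs (grey). Filled points passed an adjusted p of 0.05 and open squares did not; MST1R fell by 4.17 in SUM149PT and by 1.12 in HCC1937, and MET lay at 1.21 and -0.32.

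AXL is the receptor for GAS6 and belongs to the TAM family with TYRO3 and MERTK. It lies on the plus strand at chr19:41219203-41261766 (GENCODE 29, GRCh38). RefSeq promoter windows, from 250 bases before to 50 after a gene's start, were found for 8 of the 10 genes, 13 windows in all, and not for PDGFC and FGFR1. Both strands were searched for CACCTG (an E-box read by ZEB1 and SNAI factors), TGACTCA (AP-1) and GGAATG (TEAD). Over the 35116 windows of all genes, 20.6% held the E-box, 4.95% the AP-1 motif and 14.0% the TEAD motif. Of the 8 genes, 4 held an E-box in some window (AXL, GAS6, MST1R and FGFR2), 2 a TEAD motif (AXL and FGFR2, each in another of its start sites) and 0 the AP-1 motif. By window, as in the shares of all genes, the E-box was in 4 of 13 and the TEAD motif in 3. The stretches printed for 5 of the genes show which letters each window carries, and a match is a description only. All lie outside the annotated gene on their strand, on GRCh38.p14, 5′ to 3′, with the E-box or its reverse complement in capitals. The AXL stretch on the plus strand at chr19:41218973-41219202 (63.9% G and C) carries 1 E-box.
AXL: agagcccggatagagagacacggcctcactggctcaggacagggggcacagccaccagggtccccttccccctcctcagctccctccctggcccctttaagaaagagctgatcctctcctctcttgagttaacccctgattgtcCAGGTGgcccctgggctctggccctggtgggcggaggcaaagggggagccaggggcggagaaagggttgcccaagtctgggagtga

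AXL was at 32.7, 35.1 and 34.3 FPKM in the SUM149PT CSC libraries and at 7.86, 7.35 and 9.55 in the non-CSC libraries. In HCC1937 the values were 72.6, 66.7 and 66.6 FPKM in CSCs and 28.6, 32.5 and 31.9 in non-CSCs. Every CSC library was above every non-CSC library of its line. Of all genes, 35.3% were separate in this way and 43.4% in the other direction in SUM149PT (16037 genes). In HCC1937 19.1% and 24.3% were (15582 genes). Lack of overlap between fractions, here and for the genes below, is to be read against these shares. The ratio of the group means was 4.12 in SUM149PT and 2.21 in HCC1937, with log2 fold changes of 2.04 ± 0.11 (SE, adjusted p = 2.22e-05, limma) and 1.15 ± 0.08 (adjusted p = 0.000566). SUM159PT had 40.8, 39.0 and 42.7 FPKM, above 95.5% of the genes of the table. From high to low the groups ran HCC1937 CSCs, SUM159PT, SUM149PT CSCs, HCC1937 non-CSCs and SUM149PT non-CSCs, with no overlap between neighbours and an exact permutation p of 0.10 at each step, the smallest that 3 against 3 can give. That order is of the deposited values, and with TPM SUM159PT came below SUM149PT CSCs and HCC1937 non-CSCs. SUM149PT CSCs and HCC1937 non-CSCs were close, at means of 34.0 and 31.0 FPKM.

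MET is the receptor of hepatocyte growth factor and lies on the plus strand at chr7:116672390-116798386. Its values were 30.1, 28.2 and 28.8 FPKM in SUM149PT CSCs against 13.3, 11.9 and 12.5 in non-CSCs. HCC1937 had 20.0, 20.8 and 22.0 FPKM in CSCs and 26.6, 25.6 and 26.3 in non-CSCs, the reverse order, again with no overlap. The log2 fold change was 1.21 ± 0.07 in SUM149PT (adjusted p = 2.41e-05) and -0.32 ± 0.07 in HCC1937 (adjusted p = 0.0195). The call in HCC1937 was lost in 8 of 17 alternatives, while the sign was negative in all 17 (log2 fold changes of -0.36 to -0.20). Adjusted p was 0.0888 with quantile normalization, 0.230 with TPM, 0.0654 in a fit over all 15 libraries and 0.0623 with the replicate number as a block. It was 0.0695 without CSC replicate 2, and 0.0733, 0.0616 and 0.0611 without non-CSC replicates 1, 2 and 3. SUM159PT stood apart at 1.37, 1.38 and 2.08 FPKM, below all sorted libraries.

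MST1R (RON) is the MET relative that binds macrophage-stimulating protein and lies on the minus strand at chr3:49887002-49903873. The stretch before its start, on the minus strand at chr3:49903874-49904123 (70.8% G and C), has an E-box in a window that holds 2 in all.
MST1R: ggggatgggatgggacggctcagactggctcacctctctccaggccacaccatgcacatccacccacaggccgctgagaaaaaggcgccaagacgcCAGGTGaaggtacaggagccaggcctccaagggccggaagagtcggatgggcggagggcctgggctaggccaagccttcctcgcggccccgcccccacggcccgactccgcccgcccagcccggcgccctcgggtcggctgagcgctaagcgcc

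MST1R showed the widest fall of the 10 genes in SUM149PT. CSC libraries had 0.285, 0.210 and 0.307 FPKM and non-CSC libraries 6.06, 7.07 and 6.31, a ratio of means of 24.2 in favour of non-CSCs. HCC1937 had 11.0, 11.6 and 11.4 FPKM in CSCs and 25.2, 24.3 and 24.6 in non-CSCs. The fractions were separate in both lines, and the log2 fold changes were -4.17 ± 0.12 (adjusted p = 3.74e-06) and -1.12 ± 0.06 (adjusted p = 0.000268). The SUM149PT value ran from -4.56 to -2.56 over alternatives, the smallest size coming with a pseudocount of 1. SUM159PT had 0.0299, 0.0319 and 0.0159 FPKM.

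PDGFRB, a receptor of platelet-derived growth factors known from pericytes and fibroblasts, lies on the minus strand at chr5:150113837-150155872. Its stretch, on the minus strand at chr5:150155873-150156095 (58.3% G and C), holds none of the 3 motifs.
PDGFRB: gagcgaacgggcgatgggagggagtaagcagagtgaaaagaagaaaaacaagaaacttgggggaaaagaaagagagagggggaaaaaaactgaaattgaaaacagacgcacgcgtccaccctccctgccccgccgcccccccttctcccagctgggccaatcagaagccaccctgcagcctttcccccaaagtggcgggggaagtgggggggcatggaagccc

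PDGFRB was at 8.98, 9.16 and 9.09 FPKM in SUM149PT CSCs and at 0.944, 0.815 and 1.18 in non-CSCs, a ratio of means of 9.28. HCC1937 libraries were near 0, with 0.0669, 0.126 and 0.0536 FPKM in CSCs and 0.0204, 0.0237 and 0.0365 in non-CSCs. SUM159PT had 10.5, 12.9 and 11.2 FPKM, the highest values as deposited and below SUM149PT CSCs with TPM. The fractions of HCC1937 were separate too, as were those of SUM149PT (exact permutation p = 0.10 for each), but HCC1937 was under the minimum for limma. In SUM149PT limma gave a log2 fold change of 3.10 ± 0.13 (adjusted p = 9.20e-06), and it ran from 2.35 to 3.40 over alternatives.

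FGFR1 is the FGF receptor best known from mesenchymal cells. SUM149PT had 17.5, 17.4 and 17.0 FPKM in CSCs and 4.17, 4.58 and 4.85 in non-CSCs. HCC1937 had 14.4, 12.5 and 12.6 FPKM in CSCs and 5.14, 6.49 and 6.55 in non-CSCs. All CSC libraries were above all non-CSC libraries, across both lines. The ratio of means was 3.82 in SUM149PT and 2.17 in HCC1937, with log2 fold changes of 1.91 ± 0.07 (adjusted p = 6.95e-06) and 1.11 ± 0.12 (adjusted p = 0.00212). SUM159PT, at 14.8, 16.5 and 16.0 FPKM, lay between the CSCs of both lines as deposited, below both with TPM and above both with upper quartile scaling.

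FGFR2, on the minus strand at chr10:121478334-121598458, was low throughout, and gene-level FPKM does not separate its splice forms. SUM149PT CSC libraries had 0.00583, 0 and 0.0271 FPKM, the second of them listed at 0, and non-CSC libraries had 0.289, 0.139 and 0.223. HCC1937 had 0.530, 0.419 and 0.372 FPKM in CSCs and 1.24, 1.33 and 1.28 in non-CSCs. Non-CSCs were above CSCs in both lines without overlap, with log2 fold changes of -1.49 ± 0.20 (adjusted p = 0.000888) and -1.37 ± 0.12 (adjusted p = 0.00102). At such levels the added 0.1 sets the size. In SUM149PT FGFR2 averaged 0.0110 FPKM in CSCs and 0.217 in non-CSCs. It met the minimum for a test only through the non-CSCs, so its call there rests on them. The SUM149PT value ran from -3.60 to -0.27 over the 14 alternatives in which FGFR2 was tested. In SUM159PT 1 library had 0.00577 FPKM and the other libraries were listed at 0.

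FGFR3, on the plus strand at chr4:1793293-1808872, separated the lines more than the fractions. HCC1937 had 69.1, 62.5 and 59.8 FPKM in CSCs and 36.9, 39.3 and 38.1 in non-CSCs, higher in every CSC library, with a log2 fold change of 0.74 ± 0.08 (adjusted p = 0.00200). SUM149PT had 0.154, 0.138 and 0.153 FPKM in CSCs and 0.196, 0.0609 and 0.118 in non-CSCs, which overlapped. The SUM149PT difference of 0.19 ± 0.22 did not pass (adjusted p = 0.472) except with quantile normalization (0.65, adjusted p = 0.0243, in a range of 0.0243 to 0.853 over alternatives). SUM159PT was at 0.0636, 0.0562 and 0.105 FPKM.

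GAS6, a vitamin K-dependent ligand of AXL, TYRO3 and MERTK, lies on the minus strand at chr13:113820549-113864067. Its stretch, on the minus strand at chr13:113864077-113864326 (66.8% G and C), has 1 E-box.
GAS6: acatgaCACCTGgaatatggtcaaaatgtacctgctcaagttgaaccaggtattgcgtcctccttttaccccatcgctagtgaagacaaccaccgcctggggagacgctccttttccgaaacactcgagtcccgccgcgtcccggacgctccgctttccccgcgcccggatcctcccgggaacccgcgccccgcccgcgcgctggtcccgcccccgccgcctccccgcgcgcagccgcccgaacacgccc

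GAS6 moved against AXL in SUM149PT. There it was at 23.6, 23.1 and 23.2 FPKM in CSCs and at 38.7, 41.1 and 41.4 in non-CSCs, lower in every CSC library (log2 fold change -0.79 ± 0.06, adjusted p = 6.15e-05). In HCC1937 the fractions overlapped, with 31.9, 26.2 and 25.6 FPKM in CSCs and 24.6, 29.6 and 23.6 in non-CSCs (0.11 ± 0.13, adjusted p = 0.605). Leaving out 1 library in turn moved this HCC1937 value from 0.0067 to 0.204, with a limma adjusted p of up to 0.973. SUM159PT had 51.9, 49.1 and 51.9 FPKM, the highest of the groups as deposited, and with TPM below SUM149PT non-CSCs and HCC1937 CSCs. In the order of means, HCC1937 CSCs overlapped with HCC1937 non-CSCs (exact permutation p = 0.50), and these with SUM149PT CSCs (p = 0.20), while the CSCs of the lines did not overlap. The antisense gene GAS6-AS1 overlaps GAS6 at no more than 0.509 FPKM on average in any group. Whether the counting used strand is not stated, so reads from overlapping genes on opposite strands cannot be told apart.

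PDGFC, a ligand that binds PDGF receptors after proteolytic release of its CUB domain, lies on the minus strand at chr4:156760454-156971394. SUM149PT had 13.0, 11.7 and 11.3 FPKM in CSCs and 2.94, 3.64 and 2.88 in non-CSCs. HCC1937 had 16.4, 16.0 and 15.5 FPKM in CSCs and 8.12, 7.93 and 8.21 in non-CSCs. CSC libraries of both lines were above all non-CSC libraries, with ratios of means of 3.81 and 1.97 and log2 fold changes of 1.90 ± 0.11 (adjusted p = 3.20e-05) and 0.97 ± 0.06 (adjusted p = 0.000420). SUM159PT had the lowest values, 1.27, 1.24 and 1.36 FPKM.

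FGF2, the basic fibroblast growth factor, lies on the plus strand at chr4:122826708-122898236. Its stretch, on the plus strand at chr4:122826581-122826707 (78.0% G and C), holds none of the 3 motifs.
FGF2: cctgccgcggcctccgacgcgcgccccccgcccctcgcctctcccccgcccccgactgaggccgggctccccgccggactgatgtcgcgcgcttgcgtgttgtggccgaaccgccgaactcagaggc

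FGF2 had 15.2, 13.7 and 14.8 FPKM in SUM149PT CSCs and 2.49, 2.24 and 2.19 in non-CSCs. In HCC1937 it reached 85.3, 86.6 and 89.5 FPKM in CSCs and 32.7, 34.2 and 36.8 in non-CSCs. Every CSC library was the higher in its line, and the ratio of means was 6.32 in SUM149PT and 2.52 in HCC1937. The log2 fold changes were 2.61 ± 0.08 (adjusted p = 3.66e-06) and 1.33 ± 0.07 (adjusted p = 0.000264). SUM159PT was lowest, at 0.888, 1.13 and 1.17 FPKM. NUDT6, which overlaps FGF2 on the other strand, stood at 4.15 ± 0.509 FPKM in SUM149PT CSCs, 3.68 ± 0.302 in non-CSCs, 2.80, 2.71 and 1.02 in the HCC1937 CSC libraries, 3.25 ± 0.541 in non-CSCs and 4.25 ± 0.462 in SUM159PT.

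The difference of the CSC effect between lines was tested over the 12 sorted libraries. Of the 10 genes, 6 had a positive difference (SUM149PT minus HCC1937, signed log2 effects) and 2, MST1R and GAS6, a negative one, against 28.1% and 33% of 16451 genes. Among all genes called, 46% had a positive difference, 52.5% with quantile normalization and 40.7% with TPM. FGFR2 (-0.13 ± 0.24, adjusted p = 0.682) and FGFR3 (-0.55 ± 0.25, adjusted p = 0.0780) did not pass, and the 95% interval of FGFR2 ran from -0.67 to 0.42. The largest differences were those of MST1R (-3.05 ± 0.14), PDGFRB (2.60 ± 0.21) and MET (1.53 ± 0.09). Over alternatives that of MST1R ran from -3.44 to -1.50, that of PDGFRB from 1.95 to 2.88 and that of MET from 1.45 to 1.57. For PDGFRB, the difference rests on SUM149PT, since no HCC1937 library was above 0.126 FPKM. FGFR2 passed with a pseudocount of 0.01 (-2.06, adjusted p = 0.0154), with TPM (-1.18, adjusted p = 0.0171) and, with the opposite sign, with a pseudocount of 1 (0.40, adjusted p = 0.00118), so its direction depends on the setting. FGFR3 passed with a pseudocount of 1 (-0.70) and without SUM149PT non-CSC replicate 2 (-0.77, adjusted p = 0.00336). Over alternatives the FGFR3 difference ran from -0.77 to -0.12, with a limma adjusted p of up to 0.676. With 1 library left out it ran from -0.77 to -0.33.

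Between the lines within CSCs, 7 genes were higher and 3 lower in HCC1937 than in SUM149PT, against 45.3% and 31.7% of all genes. Within non-CSCs, 8 were higher and 2 lower, against 41.7% and 35.7%. Of all genes called in non-CSCs, 53.9% were higher in HCC1937, 44.9% with upper quartile scaling and 47.7% with TPM, and in CSCs 58.8% were, 50.3% with upper quartile scaling. All 10 genes passed in both fractions, in comparisons in which most genes did. The comparisons of CSCs, of non-CSCs and of fractions share libraries, so they are given side by side. FGFR3 was the farthest apart, at log2 differences of 8.00 in CSCs and 7.45 in non-CSCs, and PDGFRB lay the other way, at -5.68 and -3.08. These sizes depend on the pseudocount, and over alternatives FGFR3 ran from 5.82 to 8.65 and from 5.12 to 8.27, and PDGFRB from -6.70 to -3.22 and from -4.75 to -0.94. AXL was higher in HCC1937 by 1.01 and 1.90, and FGF2 by 2.57 and 3.85. MET was lower in HCC1937 CSCs (-0.47) and higher in its non-CSCs (1.06), as was FGFR1 (-0.39 and 0.40), and GAS6 had the reverse signs (0.25 and -0.64). The CSC difference of GAS6 had a limma adjusted p of 0.0636 with the replicate number as a block. This difference was lost in 9 of 17 alternatives, falling to 0.01 with upper quartile scaling. That of PDGFC (0.41) fell to 0.17 with upper quartile scaling (adjusted p = 0.0976) and 0.22 with quantile normalization (adjusted p = 0.0629), and the non-CSC difference of FGFR1 to 0.17 with upper quartile scaling (adjusted p = 0.177) and to 0.24 with TPM (adjusted p = 0.0714). Upper quartile scaling moved the median of all genes by -0.215 in CSCs and -0.216 in non-CSCs, quantile normalization by -0.17 in CSCs and 0.13 for the difference of the CSC effect, and TPM by -0.15 in non-CSCs.

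**Figure D3:**
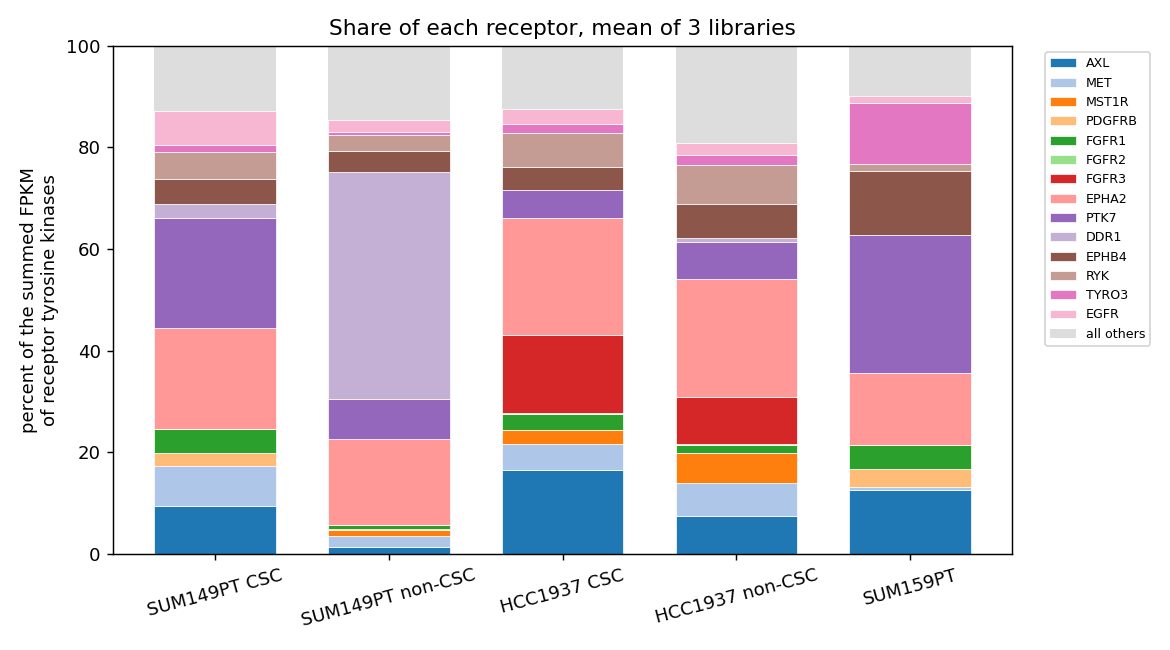
Percent of the summed FPKM of 58 receptor tyrosine kinases taken by the receptors named and by all others in the 5 groups (mean of 3 libraries, linear axis, stacked to 100). The 7 receptors described here took 24.6% in SUM149PT CSCs, 5.73% in SUM149PT non-CSCs, 43.1% and 30.9% in HCC1937 CSCs and non-CSCs and 21.5% in SUM159PT.

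Among 58 receptor tyrosine kinases of the table (a description chosen after seeing the data), the 7 receptors took a larger part of the summed FPKM in CSCs. The share was 24.6% ± 0.130 in SUM149PT CSCs against 5.73% ± 0.251 in non-CSCs, and 43.1% ± 0.208 against 30.9% ± 0.568 in HCC1937 (SD, n = 3). In SUM149PT non-CSCs, DDR1 alone held 44.7% of the sum, and it fell from 258 FPKM to 10.7 in CSCs. AXL was the second receptor by level in HCC1937 CSCs (16.6%) and the third in SUM149PT CSCs (9.32%) and in SUM159PT (12.6%). EPHA2, an ephrin receptor, led in both HCC1937 groups, and PTK7 led in SUM149PT CSCs and in SUM159PT. FGFR3 took 15.4% in HCC1937 CSCs and 0.0407% in SUM149PT CSCs.

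The counts for the pathway lists that follow stand against 33.3% higher and 41.5% lower of all genes in SUM149PT, and 10.3% and 15.3% in HCC1937. Of TYRO3, MERTK and PROS1, 2 were tested in SUM149PT, and both were higher in CSCs, TYRO3 by 0.30 and PROS1 by 1.34 (median 0.82). In HCC1937 PROS1, protein S, was higher (1.64, from 0.386 to 1.37 FPKM), MERTK lower (-1.16) and TYRO3 did not pass (3 tested, median -0.01). TYRO3 was at 39.2 FPKM in SUM159PT against 3.81 to 7.64 FPKM in the sorted groups.

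Of the 9 genes of the MET and RON pathway, 2 were higher, 4 lower and 1 did not pass in SUM149PT (7 tested, median -1.40, all genes 33.3% higher and 41.5% lower), and 0, 4 and 2 in HCC1937 (6 tested, median -1.07, all genes 10.3% and 15.3%). HGF, the ligand of MET, was at 0.253 FPKM in SUM149PT CSCs and 0.0278 in non-CSCs, and was listed at 0 in all HCC1937 libraries. The MST1R ligand MST1 fell from 5.34 to 1.96 FPKM in SUM149PT (log2 -1.40), while in HCC1937 it was at 1.12 and 1.41 FPKM. The inhibitors of ligand activation SPINT1 and SPINT2 and the activating protease ST14 were lower in CSCs of both lines, by -4.48, -4.33 and -4.40 in SUM149PT and -2.16, -1.06 and -2.66 in HCC1937. In HCC1937 the adaptor GAB1 was also lower (-1.08), and in SUM149PT the ubiquitin ligase CBL was higher (0.32).

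In the PDGF pathway, 6 of 6 genes tested were higher in SUM149PT CSCs (median 1.82, all genes -0.11 with 33.3% higher), and 2 of 5 were higher and 3 lower in HCC1937 (median -0.38, all genes -0.03 with 10.3% higher and 15.3% lower). PDGFD, a ligand under the minimum for a test, was at 0.0179 FPKM in SUM149PT CSCs and 0.158 in non-CSCs, with no overlap, and was listed at 0 in all HCC1937 libraries. PDGFRA, the other PDGF receptor, rose from 0.497 to 4.99 FPKM in SUM149PT (3.11 ± 0.17), and it was below 0.01 FPKM on average in HCC1937 and at 1.52 FPKM in SUM159PT. The ligands PDGFA and PDGFB rose in SUM149PT (2.56 ± 0.06 and 1.82 ± 0.06) and fell in HCC1937 (-0.38 ± 0.07 and -0.73 ± 0.07). PLAT and NRP1, a coreceptor, rose in both lines, by 1.37 and 0.72 in SUM149PT and 1.23 and 1.38 in HCC1937, while the protease PLAU rose in SUM149PT (1.82) and fell in HCC1937 (-0.68, from 55.3 to 34.5 FPKM).

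In the FGF pathway (31 genes), 7 of 15 tested were higher and 7 lower in SUM149PT (median 0.40, all genes 33.3% and 41.5%), and 3 of 16 higher and 4 lower in HCC1937 (median -0.29, all genes 10.3% and 15.3%). FGFR4 fell by 3.50 in SUM149PT, from 8.79 to 0.689 FPKM, and rose by 0.46 in HCC1937, from 5.94 to 8.26 FPKM. The ligands FGF5 and FGF1 were higher in CSCs of both lines, FGF5 by 2.57 and 0.95 and FGF1 by 0.97 and 1.60. FGF11, an FGF kept inside the cell, was lower in both, by -1.41 and -1.44, and FGF13, of the same kind, was lower in SUM149PT (-2.50) and listed at 0 in HCC1937. The proteoglycan GPC1 was higher in SUM149PT (0.61) and lower in HCC1937 (-0.54), and SDC1 was higher in SUM149PT (0.45). FGFBP1, a carrier that releases stored FGFs, was lower in both, by -4.74 and -0.86. The coreceptors KL and KLB were under 0.1 FPKM in all 5 groups.

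**Figure D4:**
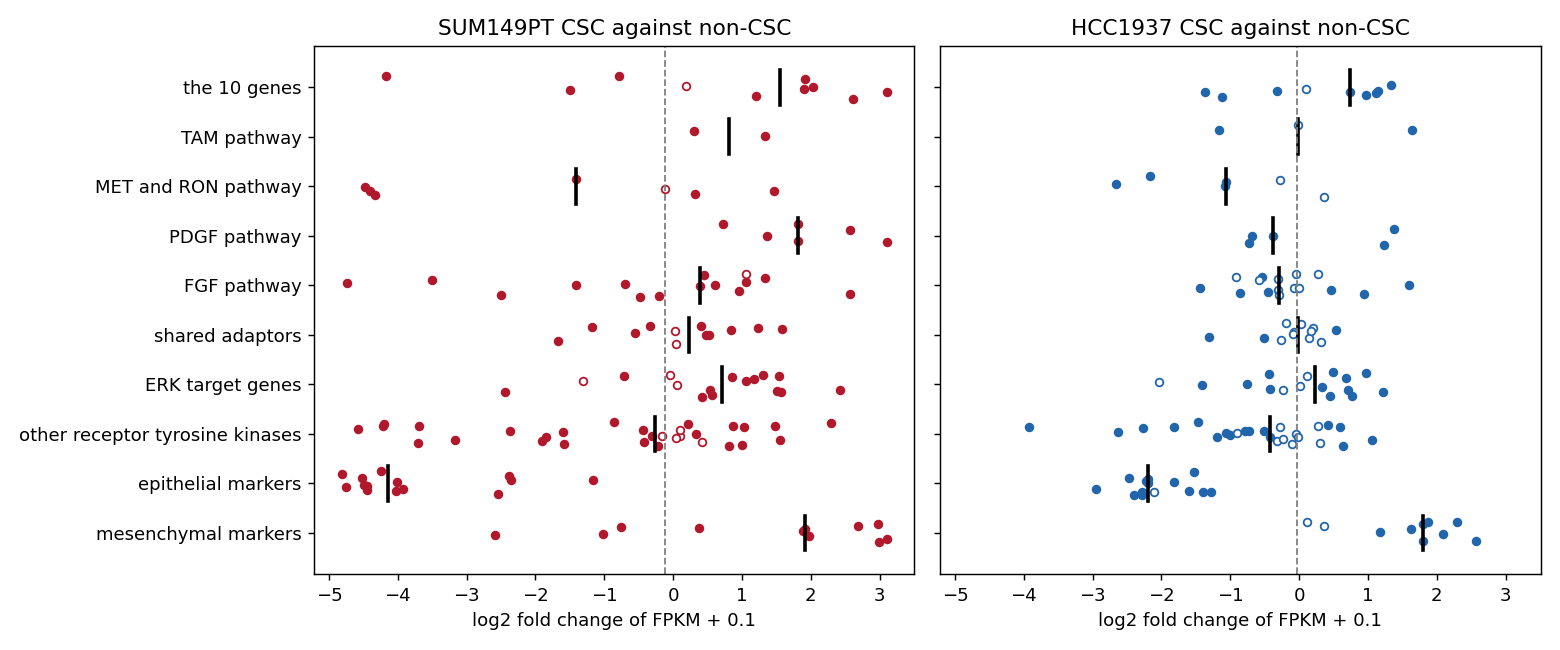
Log2 fold change of FPKM + 0.1 for CSCs against non-CSCs, 1 point per gene of each list, SUM149PT on the left and HCC1937 on the right. Filled points passed an adjusted p of 0.05, black bars are medians and dashed lines the median of all genes (-0.11 and -0.03); epithelial markers lie at medians of -4.14 and -2.20.

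Of 16 genes that ERK signalling switches on, 11 were higher and 2 lower in SUM149PT (median 0.71), where 33.3% and 41.5% of all genes were. In HCC1937, 8 were higher and 4 lower (median 0.22), against 10.3% and 15.3% of all genes, shares that depend on the scaling. DUSP6, an ERK phosphatase, rose from 15.3 ± 0.833 to 45.3 ± 0.715 FPKM in SUM149PT and from 24.3 ± 1.29 to 41.4 ± 2.51 in HCC1937. SPRY2, a feedback inhibitor of receptor signalling, rose by 1.54 and 0.97, and ETV1 by 2.42 and 1.22. DUSP4 and FOSL1 were lower in SUM149PT (-2.45 and -0.72), and DUSP5, ETV4 and EGR1 were among the lower genes in HCC1937 (-0.75, -0.43 and -0.43). Of 12 shared adaptors, 6 were higher and 4 lower in SUM149PT (median 0.23), and 1 higher and 2 lower in HCC1937 (median -0.02), counts to be read against the same shares. In SUM149PT PIK3R1, RASA1 and CRKL were higher (1.58, 1.23 and 0.84) and SOS2, CRK and SOS1 lower (-1.67, -1.18 and -0.55). In HCC1937 SHC1 was higher (0.54) and GAB2 and RASA1 lower (-1.31 and -0.51). Of the other receptor tyrosine kinases, 9 of 30 were higher and 16 lower in SUM149PT (median -0.26), and 4 of 25 higher and 12 lower in HCC1937 (median -0.43). ROR1, EPHA4 and EPHB2 were higher in SUM149PT (2.30, 1.56 and 0.99), and DDR1, ROR2 and EPHA1 lower (-4.58, -4.21 and -4.20). In HCC1937 EPHA4 and EPHB2 were higher (0.60 and 0.42), and DDR1, EPHA1 and EPHB3 lower (-3.92, -2.63 and -2.26).

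The genes with the most similar pattern were found by the root mean square difference of centred log2 group means over the 5 groups, among 12163 genes averaging 1 FPKM or more over the libraries. It was run for members called in both lines. The smallest values were 0.0929 for DSC2, a desmosomal cadherin, beside MST1R, 0.103 for LHFP beside FGFR1, 0.125 for MACF1 beside MET and 0.167 for COL13A1, a transmembrane collagen, beside PDGFC. KIF7 was closest to AXL (0.246), and DIO2 to FGF2 (0.519), a looser match. The closest to FGFR2, from 12164 genes, was C1orf226 (0.174). DSC2 stood at 0.219, 4.75, 8.54, 18.5 and 0.00455 FPKM in SUM149PT CSCs, SUM149PT non-CSCs, HCC1937 CSCs, HCC1937 non-CSCs and SUM159PT. MACF1 did not share the lower level of MET in HCC1937 CSCs, at 7.01 ± 0.672 FPKM there and 6.82 ± 0.696 in HCC1937 non-CSCs.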

How the data were processed

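The authors deposited FPKM values per gene symbol for 15 mRNA libraries made with oligo(dT) beads and Illumina protocols. The submitters' processing notes name Bowtie2 and GRCh38. The quantification tool, the annotation, the strandedness and any scaling between libraries are not given in the sources used here. Groups and replicate numbers come from the labels.

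Values were modelled as log2(FPKM + 0.1) with limma 3.58.1 in R 4.3.3 (lmFit and eBayes). Each line was fitted alone for CSCs against non-CSCs, and the 12 sorted libraries were fitted together for the comparisons of the lines. Genes averaging 0.1 FPKM or more over the fitted libraries were tested, with Benjamini-Hochberg adjustment over all of them and calls at an adjusted p of at most 0.05. The study's cutoffs were 1e-04 for the false discovery rate and 1 for an enrichment score, which was read here as the size of the log2 fold change. Low genes have their changes understated by the added 0.1. Neighbouring groups were compared by exact two-sided permutation tests. Descriptions used numpy 2.4.6 and pandas 2.3.3 in Python 3.11.15, with matplotlib 3.10.9 for plots and scipy 1.17.1 for tests. Gene positions are from GENCODE 29 and promoter windows from RefSeq on GRCh38.p14. The model was tested on simulated data.

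The 10 genes and the lists were chosen with earlier results of these data known. From the pathway, adaptor, ERK target and kinase lists, genes called with 1 FPKM or more in a fraction were named, up to 3 per direction and line by size of the log2 fold change. Further genes of these lists were chosen after their values were seen, and marker lists are given by counts, sums and leading genes. Alternatives changed the pseudocount (0.01 or 1) and the minimum (none or 1 FPKM). Others rescaled the libraries by upper quartile, quantiles or TPM, let eBayes follow a trend with or without robust estimation, fitted all 15 libraries, blocked on replicate number, applied the study's cutoffs, or dropped each library in turn. The level of 1 marker gene is not reported here.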

Additional observations from a re-analysis of the deposited data

Results flagged for a closer look

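For 8 of the 10 genes, the CSC effect (log2 difference of CSCs and non-CSCs) differed between SUM149PT and HCC1937 by limma's interaction test at an adjusted p of at most 0.05. SUM149PT minus HCC1937 gave 0.89 for AXL, 1.53 for MET, -3.05 for MST1R, 2.60 for PDGFRB and 0.80 for FGFR1. For the ligands it was -0.90 for GAS6, 0.93 for PDGFC and 1.28 for FGF2. PDGFRB was under the minimum for a test in HCC1937 alone and entered this fit through its SUM149PT level. Its difference therefore rests on SUM149PT. AXL, PDGFC, FGFR1 and FGF2 rose in the CSCs of each line, more so on the log2 scale in SUM149PT, and MST1R fell in each. MET was called in opposite directions, and its HCC1937 call was lost in 8 of 17 alternatives. Over all genes, 10053 of 16451 differed in the same test. Groups of 3 libraries were not tested for outliers.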

How the results depend on the processing

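Over 49 gene-level results and their 885 alternative values, 855 kept direction and side of the threshold, 21 lost the call, 5 gained one and 4 changed sign, all from values not called in the fit reported. These are FGFR3 in SUM149PT without non-CSC replicate 2 (-0.0327, in a leave-out range of -0.0327 to 0.408) and the FGFR2 difference between lines with a pseudocount of 1 (0.40), quantile normalization (0.0496) and without SUM149PT non-CSC replicate 1 (0.0362, in a leave-out range of -0.315 to 0.0362). Those that changed are given beside MET, FGFR2, FGFR3, GAS6, PDGFC and FGFR1 in the report, and the cause was not tested. At the study's cutoffs, those of the 10 genes lower in SUM149PT CSCs numbered 1 in place of 3, and all genes called there 3292 in place of 11993. In HCC1937 those cutoffs, applied to the fit used here, left 0 of the 10 genes higher, 0 lower and 0 genes in all, in place of 5, 3 and 3985. The paper does report differing genes in that line. The order of the 5 groups was kept for 6 of 10 genes with TPM, changing for AXL, GAS6, PDGFRB and FGFR1, and for 8 with upper quartile scaling.

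Leaving out 1 library in turn gave 11153 to 11452 genes called in SUM149PT, 2709 to 3638 in HCC1937 and 9444 to 9983 in the difference between lines. Of the 10 genes, 6 were higher and 2 to 3 lower in SUM149PT, and 5 higher and 2 to 3 lower in HCC1937.

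With the replicate number as a block (the replicate block), 11492 genes were called in SUM149PT and 3066 in HCC1937, and MET in HCC1937 had an adjusted p of 0.0623 and GAS6 within CSCs 0.0636. Deviations of equal numbers correlated at 0.136, 0.0287 and 0.12 in SUM149PT and -0.158, -0.0504 and -0.0355 in HCC1937. These values were low or negative, and not every library correlated best with its own number. Whether numbers pair libraries is not in the labels. Unknown depth and 3 libraries per group limit the low genes FGFR2, PDGFRB in HCC1937 and FGFR3 in SUM149PT.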
